A study of Mus musculus with 26 samples.

Results

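The interferon response genes were followed here over 5 exocrine glands of BALB/c mice and both sexes. Members were the probes whose gene symbol begins with Ifi, Ifn, Isg, Oas, Gbp, Iigp, Irgm, Igtp or Usp18, or with Irf and a digit, or is Mx1, Mx2, Stat2, Psmb8, Psmb9, Tap1 or Tap2. This rule found 44 probes for 44 genes among the 10500 probes of the array. Of these, 41 passed the filter on dim probes, which kept 8211 probes in all. The arrays held RNA of 3 salivary glands (submandibular, sublingual and parotid), of the lacrimal gland and of the meibomian gland, from animals of each sex. All were of the inbred BALB/c strain. No allele, agent or treatment was named for any group, and the age of the mice was not given in the sources used here. Each array held 1 pool of 10 glands from 5 animals, so it shows a mean over animals and no animal's own level. There were 3 pools a sex for the submandibular, lacrimal and meibomian glands and 2 a sex for the sublingual and parotid glands, 26 arrays in all.

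Interferons are secreted signals of virus infection and of activated lymphocytes. The alpha interferons bind the receptor chains IFNAR1 and IFNAR2, and interferon gamma binds a receptor that includes IFNGR1. Both receptors signal through Janus kinases to transcription factors. A complex that holds STAT2 and IRF9 binds the interferon-stimulated response element (ISRE) of target genes, and the gamma-activated site (GAS) is the element through which interferon gamma acts. The targets include guanylate-binding proteins, immunity-related GTPases, the ISG15 modifier, Mx and OAS antiviral proteins, and the parts of the immunoproteasome and peptide transporter that supply MHC class I molecules. Salivary, lacrimal and meibomian glands secrete saliva, tears and tear-film lipid, and the interferon response of salivary and lacrimal glands is known from autoimmune sialadenitis and dacryoadenitis.

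Values are linear intensities in units to which each array had been scaled before deposit, with array medians from 0.928 to 0.955. An array's own 30th percentile, 0.281 to 0.561 over the 26 arrays, served as the limit below which a probe was called dim. Markers set the lacrimal and meibomian glands apart and separated the salivary glands less well. The lacrimal acinar list (Sval2, Mucl1, Lpo) summed to 743 to 1193 in lacrimal pools and to at most 313 elsewhere, although 1 of the 3, Mucl1, was at or below the 30th percentile in lacrimal pools. The meibocyte list (Elovl3, Elovl4, Scd1, Fasn) summed to 229.7 to 340.2 in meibomian pools and to at most 61.9 elsewhere. The parotid marker Amy1 did not single out the parotid gland, at 150 to 492 there, 159 to 318 in submandibular, 136 to 327 in sublingual and up to 362 in lacrimal pools. The submandibular duct sum (Egf, Klk1b24) was 13.1 to 429 in submandibular and 4.52 to 147 in sublingual pools, which overlap. The mucous cell marker Spdef was highest in sublingual pools, at 15.6 to 19.4 against at most 13.1. Other cell types moved with the glands. The sum of 6 pan-leukocyte markers was 24.3 to 43.8 in sublingual pools, 8.74 to 27.1 in parotid pools and at most 11.3 in the other glands, and all 6 markers were higher in the sublingual gland by the gland test below. Skeletal muscle markers summed to 101 to 183 in meibomian and 31.5 to 124 in parotid pools, against at most 14.9 elsewhere. Adipocyte markers summed to 99.2 to 324 in parotid pools (3 of 3 higher), 61.7 to 129 in submandibular pools (2 of 3 higher), 3.49 to 21.2 in lacrimal pools (3 of 3 lower) and 14.4 to 70.5 in the other glands. The part of fat in the parotid and lacrimal results was not tested. In bulk RNA of a gland, fewer cells of a type and less RNA per cell cannot be told apart. The pools also fell on 2 sides in the correlations of all probes, in a way that crosses glands and sexes. On 1 side lay submandibular B, sublingual A, parotid A, lacrimal B and meibomian A of both sexes. Arrays of different glands on that side correlated at 0.224 to 0.606 in their deviations from group means, and arrays of opposite sides at -0.606 to -0.064. The sides were read from correlations of these same data, so the ranges describe the split and do not test it. In the groups of 2 pools the deviations also mirror each other, which fixes part of the negative values. No label gives this split, and its part in the results below was not tested beyond the values given beside them.

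Almost every member kept varied between glands. In a moderated F test over the 5 glands, 38 of the 41 passed at an adjusted p below 0.05, where 80.5% of all probes kept passed. The 3 that did not were Ifit2, Ifitm2 and Oas1c. With the pool pairs as a random block, 35 of 41 passed against 66.8% of all probes, since Irf8 (adjusted p = 0.0768), Ifit1 (0.0570) and Mx1 (0.192) then missed the threshold in limma. The meibomian gland held the lowest level of 19 of the 41 members and the highest of 8. The sublingual and parotid glands each held the highest level of 13, and the lacrimal gland held the lowest level of 13.

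**Figure D1:**
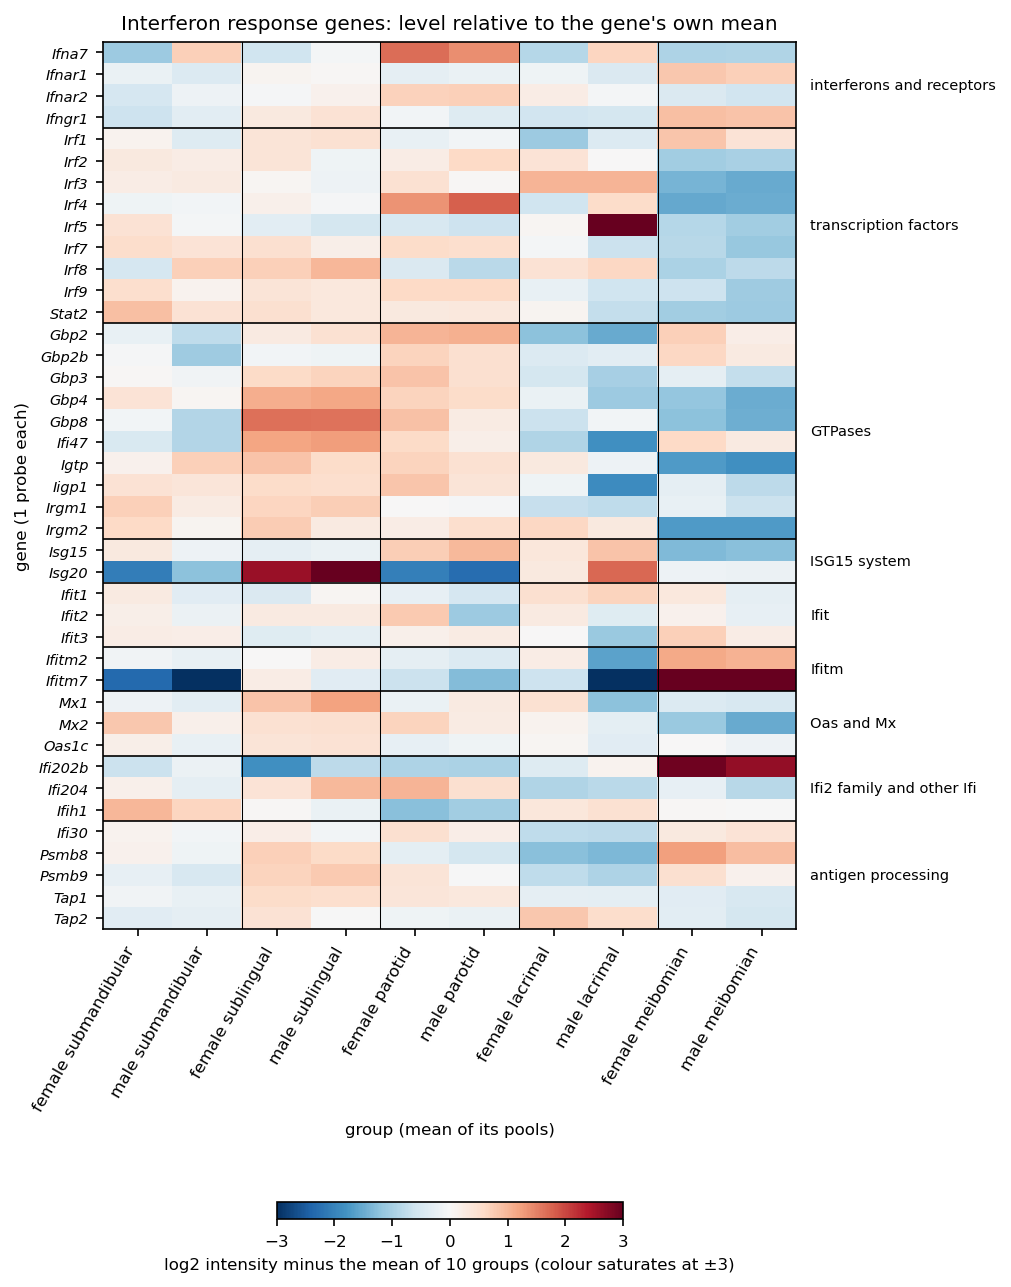
Heat map of the 41 members kept (rows, by role) in the 10 groups of sex and gland (columns, means of 2 or 3 pools). Colour is log2 intensity minus the gene's mean over the 10 groups. The meibomian columns are blue for every transcription factor except Irf1, and the sublingual columns are red for Isg20, Gbp8, Ifi47 and Gbp4; colour saturates at 3 log2 units.

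Each gland was then set against the mean of the other 4, and a member was called at an adjusted p below 0.05 and a log2 difference of at least 1, a fold of 2. The meibomian gland had 20 of 41 members called, 5 higher and 15 lower, where 37.9% of all probes kept were called (17.0% higher and 20.9% lower). The lacrimal gland had 10 called, 3 higher and 7 lower, against 20.2% of all probes (11.6% higher and 8.57% lower). The parotid gland had 7 called, 4 higher and 3 lower, against 17.1% (8.94% higher and 8.12% lower). The sublingual gland had 7 called, 6 higher and 1 lower, against 11.1% (5.87% higher and 5.25% lower). The submandibular gland had 3 called, 1 higher and 2 lower, against 12.3% (5.69% higher and 6.60% lower). Read against these shares, 7 of 41 in the parotid gland is at the background and 3 of 41 in the submandibular gland below it. The median log2 difference of the 41 members was 0.45 (sublingual), 0.37 (parotid), -0.04 (submandibular), -0.39 (lacrimal) and -0.55 (meibomian). Over all probes the same medians were -0.08, -0.13, -0.02, 0.12 and -0.09. To order the gland levels of a member, each pair of glands was also tested at an adjusted p below 0.05. Of all probes, the pairs with the meibomian gland called 58.8% (submandibular), 52.5% (sublingual), 58.2% (parotid) and 62.9% (lacrimal). Pairs with the lacrimal gland called 36.7% (submandibular), 38.1% (sublingual) and 41.8% (parotid). Among the salivary glands 15.6% differed between submandibular and sublingual, 25.9% between submandibular and parotid and 19.3% between sublingual and parotid. With the pool pairs as a random block, the gland calls covered 10.7% (submandibular), 8.93% (sublingual), 15.3% (parotid), 19.6% (lacrimal) and 37.3% (meibomian) of all probes. Members called were then 3, 5, 6, 9 and 19 in that order.

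Some promoters of the members hold interferon response motifs. The choice used names and no sequence. Many of the names refer to interferon, however, so a higher share of motifs is no independent support. RefSeq windows of 300 bases (GRCm38.p6, from 250 bases before the start site) were at hand for 36 of the 44 genes. The ISRE core, searched on both strands as GAAA, any 2 bases and GAAA, was in 14 of the 36 (38.9%, Wilson 95% interval 24.8 to 55.1%), against 3.99% of 27025 genes with such windows. The GAS letters TTCNNNGAA, which read the same on both strands, were in 12 of the 36 (33.3%, 20.2 to 49.7%), against 9.55% of genes. Both intervals count adjacent members, such as Gbp3, Gbp2b and Gbp2, as separate draws. Either motif was in 23 of the 36, against 12.9% of genes, and Igtp, Irgm2 and Irf2 held both. The 120 bases before the start site are shown for 9 members picked from those with a match there, with matches in capitals. Members whose window held neither motif, among them Ifitm7, Irf3, Irf4 and Irf5, are not shown. In Isg15, Gbp3, Gbp2 and Ifit1 the capitals mark ISRE cores, overlapping in Isg15 and Gbp3.
Isg15, chr4:156200819-156200938 (minus strand): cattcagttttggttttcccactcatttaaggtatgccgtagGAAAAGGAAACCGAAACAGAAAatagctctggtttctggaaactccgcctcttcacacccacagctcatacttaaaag
Gbp3, chr3:142559924-142560043 (plus strand): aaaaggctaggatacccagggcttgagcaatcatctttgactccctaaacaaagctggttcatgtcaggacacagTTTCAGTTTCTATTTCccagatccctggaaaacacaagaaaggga
Gbp2, chr3:142620543-142620662 (plus strand): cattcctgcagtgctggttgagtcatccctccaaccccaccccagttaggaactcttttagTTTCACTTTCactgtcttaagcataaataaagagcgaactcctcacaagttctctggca
Ifit1, chr19:34640769-34640888 (plus strand): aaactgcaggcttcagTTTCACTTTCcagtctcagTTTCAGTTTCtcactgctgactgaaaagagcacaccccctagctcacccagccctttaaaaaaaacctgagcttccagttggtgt
In the neighbours Igtp and Irgm2 the first capitals are the GAS letters and the second the ISRE core.
Igtp, chr11:58199436-58199555 (plus strand): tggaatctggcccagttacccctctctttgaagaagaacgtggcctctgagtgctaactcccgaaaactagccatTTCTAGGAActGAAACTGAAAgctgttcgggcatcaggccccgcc
Irgm2, chr11:58214857-58214976 (plus strand): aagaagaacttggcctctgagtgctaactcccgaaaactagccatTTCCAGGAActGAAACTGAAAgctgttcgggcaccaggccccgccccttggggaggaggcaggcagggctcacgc
In Irf1, Psmb8 and Isg20 the capitals mark the GAS letters.
Irf1, chr11:53769894-53770013 (plus strand): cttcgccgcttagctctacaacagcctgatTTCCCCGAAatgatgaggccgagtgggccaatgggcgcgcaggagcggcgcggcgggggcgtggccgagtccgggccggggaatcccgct
Psmb8, chr17:34198075-34198194 (plus strand): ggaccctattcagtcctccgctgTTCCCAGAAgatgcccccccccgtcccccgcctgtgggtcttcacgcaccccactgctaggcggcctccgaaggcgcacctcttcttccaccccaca
Isg20, chr7:78913304-78913423 (plus strand): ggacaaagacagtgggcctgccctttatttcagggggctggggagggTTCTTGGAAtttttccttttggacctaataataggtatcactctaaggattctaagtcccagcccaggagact
Isg15 held 3 overlapping ISRE cores. Igtp and Irgm2, which lie side by side in the annotation, held both motifs in the same order, with the ISRE core starting 11 bases after the GAS letters in each. The letters around the motifs are nearly the same in both stretches, so the shared order and spacing are not independent matches. A match describes these letters only, and no binding was measured. Members were also split by the ISRE core alone, so those without it include some with the GAS letters, such as Irf1, Psmb8 and Isg20. In the meibomian gland, the median log2 difference was -0.32 over 14 members with the ISRE core and -0.07 over 19 without it, and in the lacrimal gland -0.28 and -0.35. The same medians with and without it were 0.31 and 0.41 (sublingual), 0.41 and -0.19 (parotid), and 0.17 and -0.19 (submandibular).

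Among ligands and receptors, the receptor chains Ifngr1 and Ifnar1 were highest in the meibomian gland and the Ifna7 probe in the parotid gland. Ifngr1 lay at 2.69, 2.96 and 3.30 (lowest, median, highest of 6 arrays) in the meibomian gland and at most 2.55 on any other array, so the groups did not overlap. Its log2 difference was 1.09 ± 0.15 (SE; adjusted p = 3.3e-06, limma). The difference from the sublingual gland, the next in order, did not pass (adjusted p = 0.0541). Ifnar1 lay at 1.24, 2.11 and 2.50 in the meibomian gland and from 0.577 to 1.59 elsewhere, which overlaps. It passed the p threshold there (0.95 ± 0.19, adjusted p = 1.4e-04) but not the fold limit. The meibomian pools A, at 1.24 and 1.25, were the lowest. Its partner chain Ifnar2 went the other way: it was highest in the parotid gland (0.576 to 0.632) and lowest in the meibomian gland (0.188 to 0.333), where its difference of -0.63 ± 0.16 passed the p threshold (adjusted p = 0.0016) and not the fold limit. In the pair test the meibomian and submandibular levels of Ifnar2 did not differ (adjusted p = 0.44, limma). Ifng itself, which encodes interferon gamma, reached the 30th percentile on 0 of 26 arrays and was not tested.

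Ifna7 encodes an alpha interferon. Genes of that family are closely similar in sequence, and how far this probe separates them was not tested. The parotid pools read 4.88 and 2.82 in females and 4.66 and 2.02 in males, and all other groups lay between 0.460 and 2.87. The parotid gland was higher by 1.93 ± 0.24 (adjusted p = 1.7e-06), and the meibomian gland lower (-1.15 ± 0.20, adjusted p = 4.5e-05). In both sexes the parotid pool A was the higher of the pair.

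Of the 9 transcription factors, 8 were lower in the meibomian gland than in the mean of the others, where 20.9% of all probes were lower: Irf2, Irf3, Irf4, Irf5, Irf7, Irf8, Irf9 and Stat2. Lymphocyte and pan-leukocyte markers were lower in the same gland. There 7 of 8 B and plasma cell, 5 of 9 T cell, 3 of 6 pan-leukocyte and 2 of 3 NK cell probes were called lower and 0 higher. Of 10 macrophage and monocyte probes 1 was higher and 2 were lower, and of 6 dendritic cell and MHC class II probes 0 were called. The part of leukocytes in the lower levels of these factors, which include Irf4 and Irf8 of lymphocytes, was not tested. Irf3, which is activated by viral RNA and DNA sensors and switches on the interferon beta gene, read 0.930, 1.01 and 1.13 there, and no array of another gland was under 2.07. The log2 difference was -1.82 ± 0.18 (adjusted p = 1.9e-08). Irf7, the amplifier of alpha interferon synthesis, read 3.18 to 4.27 in meibomian pools (-1.23 ± 0.21, adjusted p = 4.8e-05), with 1 lacrimal male pool at 3.77 within that range. The 2 partners of the ISGF3 complex measured here were also low. Irf9 read 0.894 to 1.40 (-1.05 ± 0.12, adjusted p = 1.7e-07) and Stat2 0.360 to 0.528 (-1.33 ± 0.17, adjusted p = 1.2e-06). Irf1, the factor induced by interferon gamma, was the exception. It read 4.85, 5.86 and 7.38 in the meibomian gland and 1.40 to 6.11 elsewhere, with overlap, and was higher by 0.78 ± 0.14 (adjusted p = 8.4e-05), short of the fold limit.

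Not all 8 calls were equally firm. Irf5 read 0.334 to 0.492 in meibomian pools, against a mean that includes male lacrimal pools at 17.5, 8.10 and 3.23. Parotid pools, at 0.400 to 0.668, overlapped with the meibomian ones, and that pair of glands did not differ (adjusted p = 0.357, limma). Irf2 was dim in meibomian pools, where it was at least 1.42-fold lower. Irf8 was dim in meibomian pools (at least 1.07-fold lower, -1.08 ± 0.29 as fitted, adjusted p = 0.0026), and missed the call with the pool pairs as a random block (adjusted p = 0.0501). It also missed the fold limit without female parotid A (-0.92) or male meibomian B (-1.0). Under quantile normalization of the arrays Irf2 (-0.90) and Irf8 (-0.68) kept an adjusted p below 0.05 and missed the fold limit, so 6 of the 8 were called. Irf7 lacks a value for female submandibular C. With the missing code raised to the floor it read -0.86 (adjusted p = 0.361).

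In the other glands fewer factors were called. Irf4, a factor of lymphocytes and plasma cells, was highest in the parotid gland. Its parotid pools read 2.83 and 1.57 in females and 2.78 and 2.91 in males. The sublingual, lacrimal and submandibular pools lay between 0.363 and 1.62, and the meibomian pools between 0.255 and 0.370. Only 1 parotid pool, female B, fell within the range of the others. The parotid difference was 1.97 ± 0.27 (adjusted p = 9.8e-06), and the meibomian difference -1.89 ± 0.24 (adjusted p = 6.3e-07). Among 8 B and plasma cell marker probes, 2 were higher in the parotid gland and 0 lower, and 5 were higher in the sublingual gland, where Irf4 read 0.671 to 1.08. Irf3 was highest in the lacrimal gland, at 6.11, 4.82 and 6.30 in female and 6.80, 3.41 and 7.76 in male pools (1.27 ± 0.18, adjusted p = 6.5e-06). Male pool B, the lowest of these, was within the range of the salivary glands (2.07 to 4.55). Irf8, a factor of macrophages, dendritic cells and B cells, was higher in the sublingual gland (at least 1.59-fold, 1.07 ± 0.33 as fitted, adjusted p = 0.0258), since male parotid and both meibomian groups were dim. With the pool pairs as a random block its adjusted p was 0.239. It also missed the call without any 1 of sublingual female A, female B and male A or of parotid female B and male A, at 0.86 to 1.13.

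**Figure D2:**
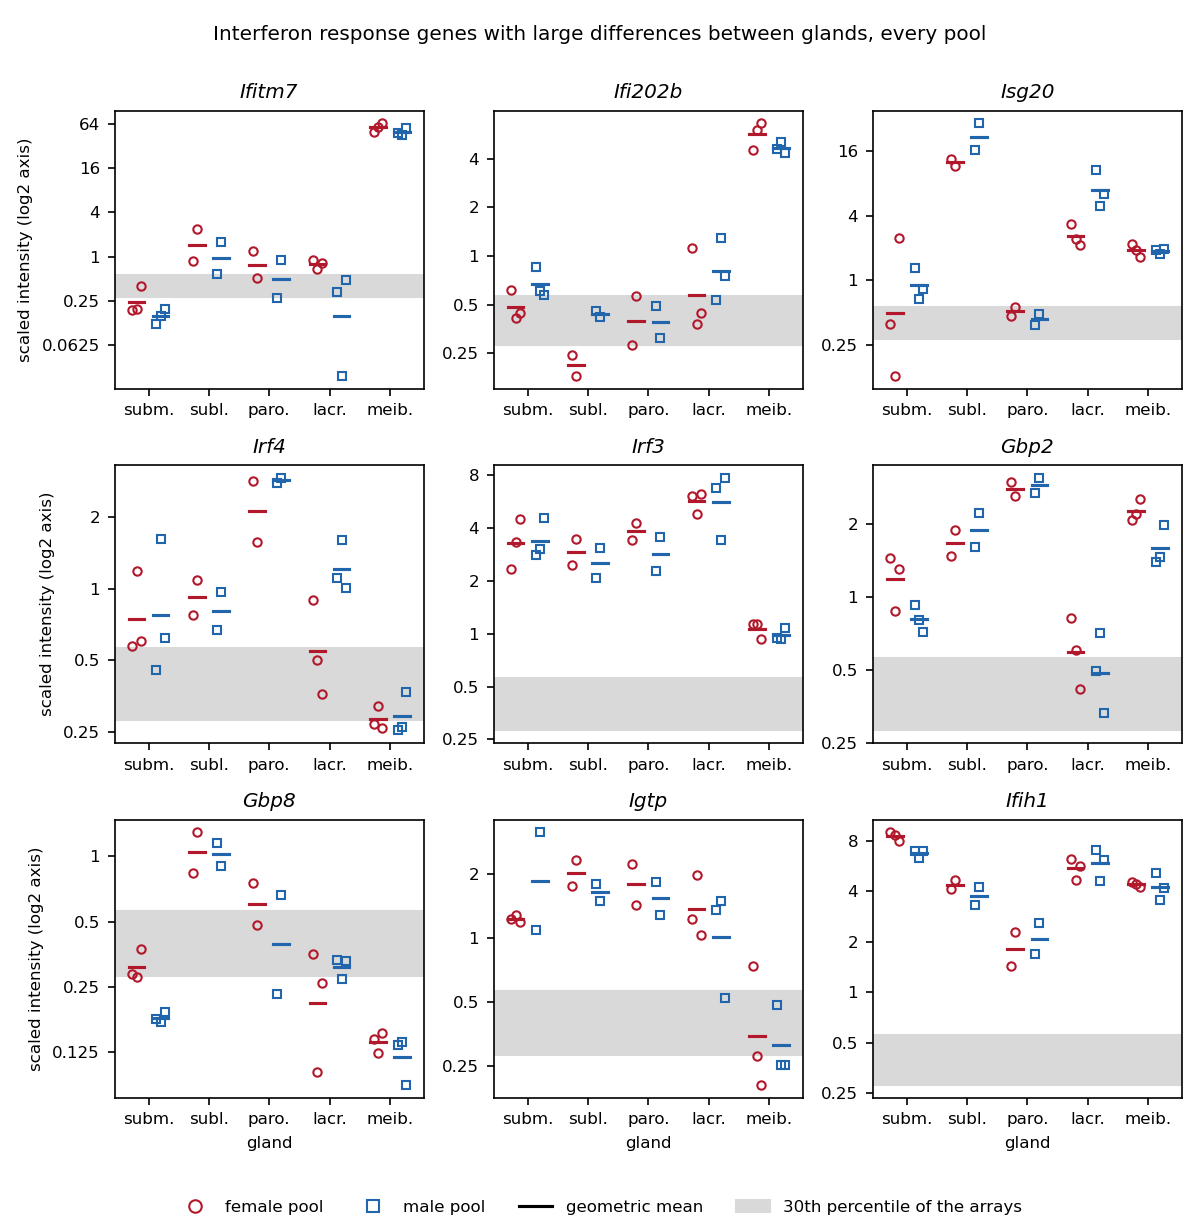
Every pool of 9 members with large differences between glands. The x axis gives the gland (subm., submandibular; subl., sublingual; paro., parotid; lacr., lacrimal; meib., meibomian), the y axis the scaled intensity on a log2 axis. Circles are female pools, squares male pools, bars geometric means, and the grey band spans the 30th percentiles of the 26 arrays. Ifitm7 and Ifi202b stand apart in the meibomian gland, Isg20 and Gbp8 in the sublingual gland, and Ifih1 is lowest in the parotid gland.

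The GTPases of the response were mostly called in the sublingual, lacrimal and meibomian glands. These proteins gather on vacuoles that hold intracellular pathogens. Of the 10 members of this group, 3 were higher in the sublingual gland (Gbp8, Ifi47 and Gbp4) and 0 lower, where 5.87% of all probes were higher. In the parotid gland 1 was higher (Gbp2), where 8.94% of all probes were, so that count is at the background. In the lacrimal gland 3 were lower (Gbp2, Ifi47 and Iigp1), where 8.57% of all probes were, and in the meibomian gland 4 were lower (Igtp, Irgm2, Gbp8 and Gbp4), where 20.9% were. In the submandibular gland 0 were called. The median log2 difference of the 10 was 0.82 in the sublingual and -0.86 in the lacrimal gland.

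Gbp8 read 0.842 and 1.29 in female and 1.15 and 0.903 in male sublingual pools, above every other array (at most 0.755). It was dim in both lacrimal and both meibomian groups and in male submandibular pools, so the sublingual gland was at least 2.79-fold higher (2.05 ± 0.26 as fitted, adjusted p = 6.0e-06). Ifi47, an immunity-related GTPase, read 5.80 and 10.9 in female and 7.65 and 9.07 in male sublingual pools (1.53 ± 0.22, adjusted p = 2.4e-05). Parotid female A (7.23) and meibomian female A (6.52) overlapped with it. Gbp4, whose gene lies near that of Gbp8, read 1.69, 2.05, 2.15 and 1.78 in sublingual pools (1.40 ± 0.20, adjusted p = 2.4e-05), and 1 parotid pool, female A at 2.02, lay within that range. Beside these, 7 of 9 T cell marker probes kept and 4 of 6 dendritic cell and MHC class II probes were higher in the sublingual gland. Only 1 of 10 macrophage and monocyte probes and 1 of 3 NK cell probes were higher there, with median log2 differences of 0.05 and -0.09. The part of leukocytes in these differences was not tested.

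Gbp2, a guanylate-binding protein, differed between most neighbouring glands in the order of levels. The parotid pools read 2.61 to 3.10, above every other array (1.30 ± 0.19, adjusted p = 1.9e-05). The lacrimal pools read 0.821, 0.606 and 0.417 in females and 0.493, 0.707 and 0.332 in males (-1.70 ± 0.16, adjusted p = 4.3e-08), and only the highest of them overlapped with the submandibular pools (0.716 to 1.45). In the order parotid, meibomian, sublingual, submandibular, lacrimal, the meibomian and sublingual glands did not differ (adjusted p = 0.736) and the other neighbours did. The adjacent genes Gbp3, Gbp2b and Gbp2 were all highest in the parotid gland, but Gbp3 was low and Gbp2 high in the meibomian gland. Gbp3 read 0.611 to 1.06 there against 1.44 to 2.27 in the parotid gland, and Gbp2 1.40 to 2.54. For Gbp3 and Gbp2b the next gland in order did not differ from the parotid gland (adjusted p = 0.904 and 0.734, limma).

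Igtp and Irgm2, the neighbours whose promoters are shown above, were the lowest GTPases of the meibomian gland relative to the others. Igtp read 0.734, 0.203 and 0.279 in female and 0.485, 0.252 and 0.253 in male meibomian pools, against 0.521 to 3.15 elsewhere (-2.21 ± 0.28, adjusted p = 9.2e-07). Irgm2 read 0.377, 0.0302 and 0.0895 in female and 0.134, 0.0870 and 0.0893 in male pools. The male pools were dim. Set to the 30th percentile, they left the other glands 2.57-fold higher (-2.12 ± 0.33 as fitted, adjusted p = 9.8e-06). Female pools B and C were also under their 30th percentiles (0.293 and 0.281) and were left as measured. This fold is therefore no lower limit. Meibomian pool A was the highest of its sex for both genes. In the salivary and lacrimal glands the neighbouring levels of both genes did not differ by the pair tests. Ifi47 was lower in the lacrimal gland by -1.72 ± 0.19 (adjusted p = 2.2e-07), and Iigp1 by -1.26 ± 0.22 (adjusted p = 7.3e-05), which is -0.96 without male lacrimal B and -0.77 on the larger side of the pool split. In the lacrimal gland 5 of 6 pan-leukocyte markers were lower and 0 higher. Of 9 T cell markers 4 were lower and 1, Cd4, was higher (1.41 ± 0.20), and of 8 B and plasma cell markers 2 were lower and 2 (Cd79a and Jchain) higher. Of 3 NK cell markers 1 was higher. Their part in these differences was not tested.

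Isg20, an exonuclease that degrades single-stranded RNA, had the widest range among the salivary glands. It read 13.5 and 11.7 in female and 16.4 and 29.2 in male sublingual pools, above all other arrays, and 0.379 to 0.566 in parotid pools. The sublingual gland was higher by 3.73 ± 0.42 (13.2-fold, adjusted p = 1.4e-06), and the parotid gland (-2.71 ± 0.42, adjusted p = 3.3e-05) and the submandibular gland (-2.07 ± 0.36, adjusted p = 0.000155) were lower. Lacrimal pools came next, at 3.33, 2.41 and 2.12 in females and 10.7, 4.87 and 6.37 in males (1.26 ± 0.36, adjusted p = 0.0066; 0.0633 with the pool pairs as a random block). The lacrimal and meibomian glands differed in the pair test (adjusted p = 0.0272), and the submandibular and parotid glands did not (adjusted p = 0.503). Isg15, a ubiquitin-like modifier, was lowest in the meibomian gland, at 0.178, 0.231 and 0.479 (-1.60 ± 0.28, adjusted p = 4.2e-05). It was highest in the parotid gland, where pool A read 0.815 and 0.801 and pool B 1.45 and 2.02 in females and males (1.06 ± 0.33, adjusted p = 0.0149). The lacrimal gland, next in order, did not differ from the parotid gland in the pair test (adjusted p = 0.618, limma). That parotid call was lost without female parotid B (0.85), male parotid B (0.73), female sublingual A (0.97) or male sublingual A (0.98).

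Ifitm7 had the largest gland difference of the members, and it and Ifi202b stood apart in the meibomian gland. Ifitm7 belongs to a family of membrane proteins that block the entry of viruses into cells. It read 50.2, 66.3 and 59.7 in female and 49.2, 45.5 and 57.0 in male meibomian pools, and no array of another gland exceeded 2.34. Male submandibular and male lacrimal pools were dim, so the meibomian gland was at least 93.1-fold higher than the mean of the others (6.85 ± 0.44 as fitted, adjusted p = 2.75e-11). The submandibular gland was 6.99-fold lower, with the same female arrays left as measured, and the lacrimal gland at least 2.86-fold lower. The other side of both comparisons includes the meibomian gland. Among the glands other than the meibomian gland no neighbours in the order differed. That does not cover glands further apart. Sublingual pools (0.578 to 2.34) lay above every submandibular pool (0.121 to 0.398). Ifitm2, of the same family, read 19.8, 22.2 and 25.5 in the meibomian gland, above all other arrays (1.36 ± 0.45, adjusted p = 0.0126). With the missing code raised to the floor, which lowers female lacrimal C, its adjusted p was 0.105. In the pair test its difference from the sublingual gland, the next in order, did not pass (adjusted p = 0.198, limma).

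Ifi202b encodes a protein that binds DNA and opposes the AIM2 inflammasome. It read 4.56, 6.66 and 6.0 in female and 4.60, 5.08 and 4.38 in male meibomian pools and at most 1.30 elsewhere, with no overlap. Female sublingual pools were dim, and set to the 30th percentile they left the meibomian gland 10.5-fold higher (3.48 ± 0.22 as fitted, adjusted p = 1.94e-11). Dim arrays of other groups, such as female parotid A (0.280), were left as measured, so this fold is no lower limit. Ifi202b was lower in the sublingual gland (at least 2.44-fold, adjusted p = 6.35e-05) and in the parotid gland (-1.16 ± 0.25, adjusted p = 0.0011), again against a mean that includes the meibomian gland. The parotid call was lost with the pool pairs as a random block (adjusted p = 0.0514) and without female parotid A (-0.91). The lacrimal, submandibular, parotid and sublingual levels did not differ between neighbours. That does not cover the ends of this order, where lacrimal pools read 0.378 to 1.30 and sublingual pools 0.180 to 0.459. Keratinocyte markers, 3 of 4 higher in the meibomian gland, and skeletal muscle markers, 5 of 5 higher, moved with it. Parotid pools, at 31.5 to 124 for the muscle sum, read 0.280 to 0.562 for Ifi202b and 0.271 to 1.18 for Ifitm7. The part of skin or muscle in the meibomian values was not tested.

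Ifih1 encodes MDA5, a cytoplasmic sensor of double-stranded RNA. It was highest in the submandibular gland, at 8.97, 8.60 and 7.93 in female and 6.90, 6.31 and 6.97 in male pools (1.02 ± 0.13, adjusted p = 5.4e-06), and the highest lacrimal pools (up to 7.07) overlapped. This value sits at the fold limit and fell to between 0.98 and 1.0 without male sublingual A, female parotid A, male parotid A or male lacrimal B, and to 0.91 on the larger side of the pool split. In the pair test the submandibular and lacrimal glands did not differ (adjusted p = 0.0509, limma). Ifih1 was lowest in the parotid gland, at 1.43 and 2.27 in females and 1.68 and 2.59 in males, below every other array (-1.43 ± 0.15, adjusted p = 2.9e-07). Ifi204, a DNA sensor whose gene lies near that of Ifi202b, had no meibomian peak (0.603 to 1.13). It was lower in the lacrimal gland (-1.07 ± 0.24, adjusted p = 0.0011), a call lost without female sublingual B (-0.99), female lacrimal C (-0.88) or male lacrimal A (-0.84). With the missing code raised to the floor it was -0.65 (adjusted p = 0.376), and without both lacrimal pools C -0.88. It could not be fitted without female parotid A, since parotid female B has no value.

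Few of the Ifit, Oas and Mx genes were called. The 3 Ifit genes, whose proteins bind viral RNA, had 0 calls for any gland against the mean of the other 4. Ifit1 was highest in lacrimal pools (1.06 to 3.45) and passed the p threshold there (0.71 ± 0.17, adjusted p = 0.0019). Oas1c, of the oligoadenylate synthetase family, lay between 0.296 and 1.03 on all arrays. Mx2, a dynamin-like GTPase, read 0.159, 0.217 and 0.344 in the meibomian gland, below all other arrays. Male meibomian pools were dim. Set to the 30th percentile, they left the other glands 2.54-fold higher (-1.64 ± 0.14 as fitted, adjusted p = 3.4e-09). Female meibomian pools B (0.230) and C (0.204) were under that limit too and were left as measured. Mx1 reached the 30th percentile on 4 of 26 arrays, was dim in 7 of the 10 groups and passed the filter through the male sublingual pools alone (0.423 and 0.680). It is counted among the sublingual calls, but that call rests on the group that let it through and is no support for a difference. With the pool pairs as a random block it was lost (adjusted p = 0.117), as it was without female (0.106) or male (0.0948) sublingual B. Oasl2 reached the 30th percentile on 3 of 26 arrays and Ifi44l on 4, and neither was tested.

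Of the 5 antigen processing members, 4 lie side by side in the annotation in the order Psmb9, Tap1, Psmb8, Tap2, and these did not share 1 pattern. Psmb8 and Psmb9 encode immunoproteasome subunits, and Tap1 and Tap2 the subunits of the peptide transporter into the endoplasmic reticulum. Psmb8 was highest in the meibomian gland, at 9.76, 11.7 and 11.2 in female and 7.09, 9.92 and 9.61 in male pools (1.35 ± 0.26, adjusted p = 1.1e-04). It was lowest in the lacrimal gland, at 2.84, 2.39 and 1.05 in female and 2.0, 4.25 and 0.707 in male pools (-1.63 ± 0.26, adjusted p = 2.8e-05). Sublingual pools (6.27 to 8.15) overlapped with the meibomian ones and submandibular and parotid pools (2.85 to 5.64) with the lacrimal ones. In the pair tests the meibomian and sublingual glands did not differ (adjusted p = 0.316, limma), nor did the parotid and lacrimal glands (0.0507). Psmb9 was also lowest in the lacrimal gland, at 0.783 to 1.49 (-1.07 ± 0.17, adjusted p = 2.5e-05). This difference was -0.99 without female lacrimal B and -0.96 without male lacrimal A. The submandibular gland, next in order, did not differ from the lacrimal gland in the pair test (adjusted p = 0.0717, limma).

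Tap2, the next gene after Psmb8, was highest in the lacrimal gland, at 5.61, 4.95 and 4.48 in female and 5.34, 4.34 and 2.95 in male pools. Its log2 difference of 0.83 ± 0.15 passed the p threshold (adjusted p = 9.0e-05) and not the fold limit, and male pool C lay within the range of the other glands (1.72 to 4.53). The sublingual gland, next in order for Tap2, did not differ from the lacrimal gland in the pair test (adjusted p = 0.0852, limma). Tap1 lay between 0.257 and 0.988 on all arrays, with 0 calls for any gland against the mean of the other 4. Ifi30, a lysosomal thiol reductase of the class II pathway, read 3.16 to 6.83 in lacrimal pools against 6.16 to 12.6 elsewhere (-0.97 ± 0.18, adjusted p = 1.7e-04), short of the fold limit.

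**Figure D3:**
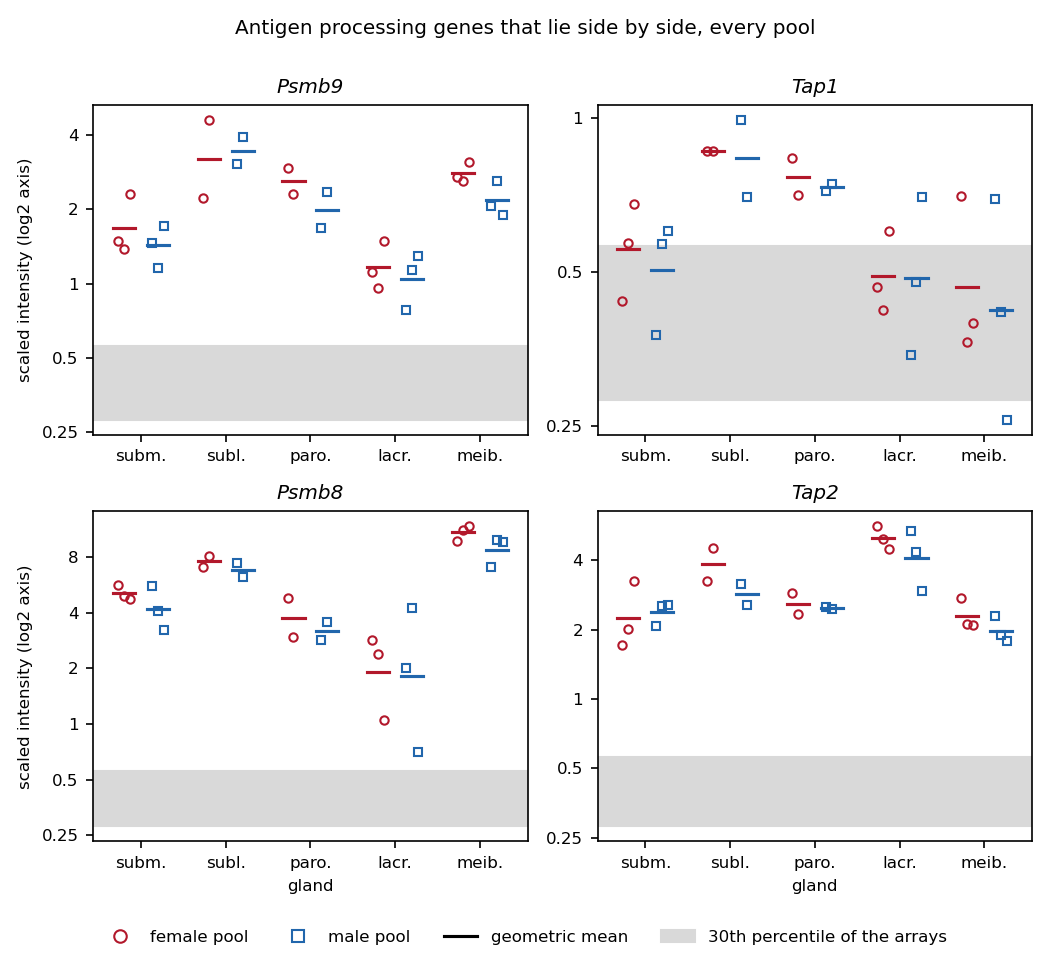
Every pool of the 4 adjacent antigen processing genes. The x axis gives the gland (abbreviated), the y axis the scaled intensity on a log2 axis. Circles are female pools, squares male pools, bars geometric means, and the grey band spans the 30th percentiles of the arrays. Psmb8 and Psmb9 are lowest in lacrimal pools, where Tap2 reaches 5.61.

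The sexes differed in few members. By an adjusted p below 0.05, 4 of 41 members were called between males and females in the lacrimal gland, against 5.41% of all probes (2.90% with males higher, 2.51% with males lower). In the submandibular gland 1 was called, where 2.59% of all probes were (1.92% higher and 0.670% lower). There were 0 calls in the sublingual (0.207% of all probes, 0.0853% higher and 0.122% lower), parotid (0.0244%) and meibomian (0.0365%) glands in limma, with 1 member in each of the 3 at an unadjusted p below 0.05 (Ifi202b, Ifit2 and Irf9). Over the mean of the 5 glands 1 member was called, where 1.27% of all probes were (0.877% higher and 0.390% lower). The test of whether the sex difference depends on the gland called 1 member, Irf5, where 2.66% of all probes were called.

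Irf5, a factor downstream of Toll-like receptors, carried the largest sex difference. Male lacrimal pools A, B and C read 17.5, 8.10 and 3.23, and female pools 0.943, 0.596 and 0.746. The groups did not overlap, and males were higher by 3.36 ± 0.47 in log2 (10.3-fold, 95% interval 2.38 to 4.35 in log2, adjusted p = 6.7e-05). Elsewhere the male minus female difference was not called, at -0.49 ± 0.47 (submandibular), -0.21 ± 0.58 (sublingual), -0.13 ± 0.58 (parotid) and -0.19 ± 0.47 (meibomian). The difference between glands passed the F test (adjusted p = 0.00423), and did not pass on the larger side of the pool split alone (16 arrays, adjusted p = 0.298), where the lacrimal difference was 3.16 ± 0.67 (adjusted p = 0.0314). Irf5 is also called higher in the lacrimal gland as a whole (2.17 ± 0.27, adjusted p = 1.55e-06). Female lacrimal pools lay within the range of submandibular pools (0.456 to 1.73), so that call mixes the sexes.

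Ifna7 was higher in males of 2 glands. Male submandibular pools read 1.80, 2.49 and 1.57 and female pools 0.514, 0.656 and 0.478, a difference of 1.81 ± 0.35 (3.51-fold, adjusted p = 0.0040). Male lacrimal pools read 2.87, 1.33 and 1.54 and female pools 0.495, 0.748 and 0.712, a difference of 1.49 ± 0.35 (2.82-fold, adjusted p = 0.0123). Neither pair of groups overlapped. In the parotid gland, where the level was highest, the difference was -0.27 ± 0.43, and in the meibomian gland 0.02 ± 0.35. Averaged over 5 glands it was 0.72 ± 0.17 (adjusted p = 0.0401). The difference between glands did not pass (adjusted p = 0.0820), and passed with the pool pairs as a block (adjusted p = 0.0414). The lacrimal call was lost without female A (1.31) or male A (1.16) of that gland and in a fit of the lacrimal arrays alone (adjusted p = 0.209), where the submandibular call stood. The call over 5 glands was lost in 16 of the 26 fits that left out 1 array, at 0.60 to 0.76. In the submandibular gland 4 of 5 skeletal muscle markers and both duct markers were higher in males, and their part in this difference was not tested.

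**Figure D4:**
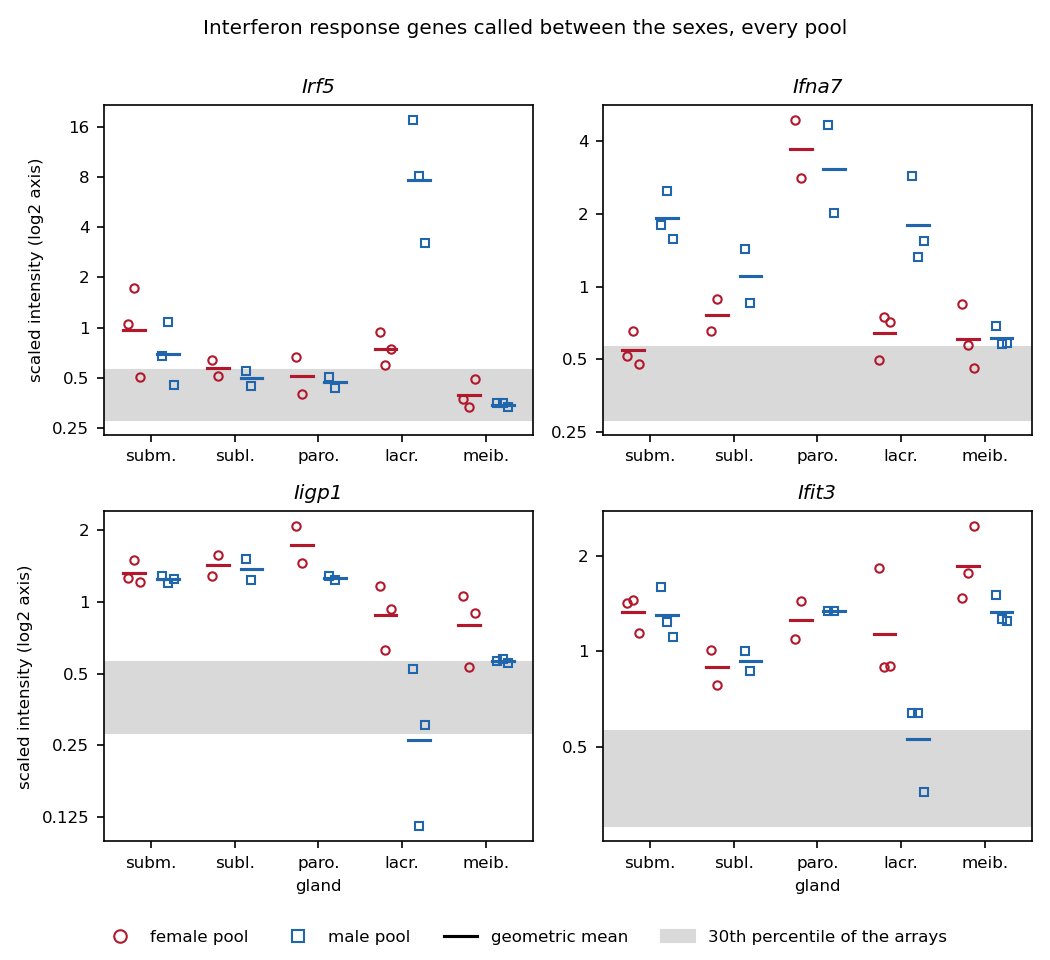
Every pool of the 4 members called between the sexes. The x axis gives the gland (abbreviated), the y axis the scaled intensity on a log2 axis. Circles are female pools, squares male pools, bars geometric means, and the grey band spans the 30th percentiles of the arrays. Irf5 is high in the 3 male lacrimal pools alone, and Ifna7 is higher in males in the submandibular and lacrimal glands.

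In the lacrimal gland Iigp1 and Ifit3 were lower in males. Iigp1 read 1.17, 0.626 and 0.935 in female and 0.523, 0.115 and 0.303 in male pools (-1.74 ± 0.38, adjusted p = 0.0065). Ifit3 read 1.82, 0.894 and 0.899 in female and 0.638, 0.637 and 0.361 in male pools (-1.11 ± 0.29, adjusted p = 0.0247). The groups did not overlap for either. Both calls were lost with array weights (adjusted p = 0.120 and 0.136) and in a fit of the lacrimal arrays alone (0.357 and 0.524). That of Ifit3 was also lost without female A (-0.77) or male C (-0.83), without both pools C (-1.0) and on the larger side of the pool split (adjusted p = 0.0967).

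Pools of the same letter correlate between the sexes, and with those pairs as a block 10 members were called in the lacrimal gland against 13.5% of all probes, 4 higher and 6 lower in males. The additions were Irf4 (1.15) and Irf1 (0.66), higher in males, and Gbp4 (-0.89), Stat2 (-0.81), Ifitm7 and Mx1, lower in males. Male lacrimal pools were dim for Ifitm7 (at least 1.87-fold lower), and both sexes were dim for Mx1, so no fold is given for it. Irf4 read 1.10, 1.60 and 1.0 in male lacrimal pools and 0.898, 0.501 and 0.363 in female pools. In the submandibular gland the block gave 3 calls against 7.23% of all probes, with Gbp2b (-1.04) and Mx2 (-0.65) lower in males beside Ifna7. Over the 5 glands it gave 3, against 4.02%, with Iigp1 (-0.57) and Mx2 (-0.37) lower in males. In the sublingual, parotid and meibomian glands it gave 0 members, against 0.438%, 0.0122% and 0.0365% of all probes. For the F test of the sex difference it gave 3, against 7.06%, with Ifna7 and Irf1 (adjusted p = 0.0289) beside Irf5. Markers of other cells also differed between the sexes in the lacrimal gland. The plasma cell marker Jchain (2.89 ± 0.78), the dendritic cell marker Itgax (1.36 ± 0.30), the NK cell marker Gzmb (1.74 ± 0.47) and the lipid enzyme Scd1 (1.51 ± 0.37) were higher in males. Each was the only call in its list, 1 of 8 B and plasma cell, 1 of 6 dendritic cell, 1 of 3 NK cell and 1 of 5 meibocyte probes. The median log2 difference of the dendritic cell list was -0.34. The T cell, macrophage and pan-leukocyte lists had 0 calls. The adipocyte markers Adipoq (-1.73 ± 0.46) and Retn (-1.49 ± 0.40) were lower in males. Amy1, an amylase gene, was not called, and ranged from 6.36 to 362 over the 6 pools. The part of these markers in the members' differences was not tested.

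Where 0 members were called between the sexes, the 2 members of smallest p were as follows. In the sublingual gland Ifi202b read 0.459 and 0.416 in male pools and 0.244 and 0.180 in female pools, which were dim (adjusted p = 1.0), and Tap2 was at -0.44 ± 0.31. In the parotid gland Ifit2 read 0.467 and 0.426 in female pools, the only group through which it passed the filter, and 0.122 in the 1 male pool measured, which was dim (adjusted p = 1.0). Mx2 there was at -0.43 ± 0.30. In the meibomian gland Irf9 was at -0.45 ± 0.21 (adjusted p = 1.0) and Ifit1 at -0.61 ± 0.30.

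The pathway's other genes, in a list of receptor kinases, sensors, effectors, antigen processing genes and chemokines, had 48 probes kept. In the sublingual gland 8 were higher and 0 lower, and in the meibomian gland 3 were higher and 13 lower. In the lacrimal gland 1 was higher and 8 lower, and in the submandibular gland 1 was higher. In the parotid gland 5 were higher and 2 lower. Of all probes, 5.87% were higher in the sublingual, 20.9% lower in the meibomian and 8.57% lower in the lacrimal gland. The parotid counts lie near or below the shares of all probes there (8.94% higher and 8.12% lower), as does the submandibular count (5.69% higher). The median log2 differences of these 48 were 0.38 in the sublingual and -0.24 in the meibomian gland. The chemokine Ccl5 (2.34 ± 0.31, adjusted p = 1.3e-05) and the class II transactivator Ciita (1.60 ± 0.30, adjusted p = 5.5e-04) were higher in the sublingual gland. In the meibomian gland Ccl5, Cxcl9 and Cxcl10 were lower (-2.21, -1.93 and -1.57), as was the nuclear body gene Sp100 (-2.78 ± 0.13, adjusted p = 3.8e-13). The proteasome activator genes Psme1 (2.18 ± 0.15) and Psme2 (2.17 ± 0.15) were higher there, as was Psmb8 among the members, and both were lower in the parotid gland (-2.47 and -1.24).

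Trim21, the cytosolic antibody receptor and Ro52 autoantigen, was higher in the parotid gland by 4.21 ± 0.22 (adjusted p = 6.7e-12), with a gland level of 26.2 against 5.20 or less in the others. Ccl2 was also higher there (2.40 ± 0.34). In the lacrimal gland the signalling inhibitor Socs2 (-2.41 ± 0.15) and the RNA sensor Tlr3 (-1.57 ± 0.13) were lower, and the DNA sensor Tlr9 was higher (1.57 ± 0.13). Between the sexes, 2 of the 48 were called, both in the lacrimal gland and both higher in males. These were the MHC class I light chain B2m (2.17 ± 0.45, adjusted p = 0.0044) and the STAT inhibitor Pias1 (1.08 ± 0.21, adjusted p = 0.0029). Between the sexes of that gland 5.41% of all probes were called (2.90% with males higher), so 2 of 48 is near the background.

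Ifitm2 and Irf7 differed between the pools of a gland. Ifitm2 read 17.9 and 17.0 in sublingual pools A of females and males and 6.04 and 8.45 in pools B. In the parotid gland it read 13.9 and 12.8 in pools A and 5.20 and 4.75 in pools B. The meibomian pools spanned only 19.8 to 25.5. Irf7 had the opposite order, at 6.75 and 6.30 in sublingual pools A and 16.1 and 11.3 in pools B, and 8.66 and 7.30 in parotid pools A and 13.8 and 15.3 in pools B. Pools A of both glands lie on the smaller side of the split described above. With the split as a block, 39 members varied between glands and Ifitm2 was among them (adjusted p = 0.0123).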

How the data were processed

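Messenger RNA was measured on 26 arrays, 1 per pool. The deposited table holds, per its values, linear intensities scaled per array, as the authors left them. The platform, background correction, scaling and dyes are not given in the sources used here. Cells at -1 (2241, of which 6 among the members) were treated as missing. Other low or negative values were raised to 0.0234, the 1st percentile, and log2 was taken with no further normalization. A probe was kept if it reached its array's 30th percentile on every measured array of at least 1 of the 10 groups.

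Group means were fitted with limma 3.58.1 in R 4.3.3 (lmFit, eBayes) over all arrays, with Benjamini-Hochberg adjustment over the probes kept. The fitting script was tested on simulated data. Levels are geometric means, and SE is that of the fit. P-values rest on the spread between pools, with 1 spread per probe shared by all glands, although some glands varied more than others. The main tests treat same-letter pools of both sexes as independent, although their correlation as a random block was 0.563. "At least" marks folds against groups below the 30th percentile on every array, which were set to that percentile. Dim arrays in groups not wholly below it were left as measured, so for those arrays the fold is no lower limit.

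The members, marker lists and pathway list were chosen with earlier results of these data known. A further symbol in the rule for members is not reported here. Members given pool by pool were, per gland, up to 4 of the largest positive and 3 of the largest negative differences called, per sex comparison up to 4 a direction, or the 2 of smallest p where there were no calls, and the 4 of smallest p in each F test. Pool letters pair the sexes: in the 9 pairs of the glands with 3 pools, deviations of the same letter correlated at 0.441 to 0.816 over 7555 probes. The block with these pairs was an alternative, as were another floor, the missing code raised to the floor, no filter, quantile normalization, array weights, the gland's own arrays, and each array left out. Added after seeing the data were the pool split as a block, its larger side alone, and both lacrimal pools C left out.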

Additional observations from a re-analysis of the deposited data

Results flagged for a closer look

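The male minus female difference of Irf5 differed between the 5 glands (moderated F test in limma, adjusted p = 0.00423). It was 3.36 in the lacrimal gland, where males were higher in 3 of 3 pool pairs, and between -0.49 and -0.13 in the other 4 glands. On the larger side of the pool split alone the same test gave an adjusted p of 0.298.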

How the results depend on the processing

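Of 599 alternative values for 48 named differences and F tests, 572 kept their call, 22 lost it, 5 gained it and 0 turned direction. Of 134 counts of members other than those that leave out an array, 115 were within 1.5 times the count reported. By adjusted p alone, without the fold limit, the members called were 13 (submandibular), 15 (sublingual), 17 (parotid), 22 (lacrimal) and 34 (meibomian). Between the sexes in the lacrimal gland, 1 member was called with array weights, 1 from the gland's own arrays and 10 with the replicate block of pool pairs. In the submandibular gland 2 were called with array weights and 3 with the replicate block. Over the mean of the glands 0 were called on the larger side of the split, 0 with the missing code raised to the floor, 0 without the filter, and 3 with the replicate block (in limma, Ifna7 had adjusted p-values of 0.187, 0.0528 and 0.0658 in the first 3). The test of whether the sex difference depends on the gland called 2 members with array weights, 0 on the larger side of the split, 3 with the replicate block and 2 with the split as a block. The longer ISRE motif, with a C after the core, was in 9 of 36 promoters rather than 14. Leaving out each array in turn gave 37 to 39 members that varied between glands. The gland calls were 2 to 3 (submandibular), 5 to 8 (sublingual), 6 to 8 (parotid), 9 to 14 (lacrimal) and 19 to 21 (meibomian). Between the sexes they were 1 to 2 in the submandibular, 2 to 6 in the lacrimal, 0 to 0 in the sublingual, parotid and meibomian glands, 0 to 1 over the mean, and 1 to 2 for the dependence on gland. Where a sublingual or parotid array is left out, the lone sample left is assumed to vary like the others. Except where values are printed, the cause of these changes was not tested. The number of arrays limits the precision.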
